A study of Mus musculus with 15 samples.

Results

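The genes described here are the PPAR receptors and their closest partners: the receptors Ppara, Ppard and Pparg, the retinoid X receptors Rxra and Rxrb, and the coactivators Ppargc1a and Ppargc1b. They were taken by gene symbol from the liver and lung count tables, and all 7 were found among the 54532 genes of each table. The study fed wild-type C57BL/6J mice, an inbred laboratory strain, either a control diet (CS) or the same diet supplemented with phytosterols at 2% (PS), and sequenced polyadenylated RNA from whole liver and whole lung. Liver libraries came from 4 CS and 5 PS mice and lung libraries from 3 CS and 3 PS mice, and the 6 mice with a lung library also had a liver library. No group carried a transgene, a deletion or a drug treatment, and every library came from a mouse of its own within a tissue. The labels give an age of 28 weeks for every mouse, while the feeding times in the study's methods add up to an older age, and those methods describe the mice as male. Neither source gives the hour at which tissue was taken.

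PPAR receptors are nuclear receptors that bind fatty acids and their derivatives and act on DNA together with a retinoid X receptor. PPARα is best known for switching on fatty acid oxidation and ketone body synthesis in the fasted liver, PPARγ for fat cell development and for lipid handling in alveolar macrophages, and PPARδ (Ppard) for fat use in many tissues. The coactivators PGC-1α (Ppargc1a) and PGC-1β (Ppargc1b) have no DNA-binding activity of their own and raise the output of these and other receptors, among them those that control mitochondria.

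On the mouse build GRCm38, which the tables use, Ppara lies at chr15:85734983-85802819 on the plus strand. Its partner Rxra lies at chr2:27676440-27762957 on the plus strand and Rxrb at chr17:34031812-34038393 on the plus strand. Ppard spans chr17:28232700-28301474 and Pparg chr6:115360951-115490399, also on the plus strand. Ppargc1a lies on the minus strand at chr5:51454250-51567726. No exon of these genes overlapped an exon of another gene in the annotation, and the counts are per gene, so the transcript isoforms of Pparg and of the other genes cannot be told apart.

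Promoter sequences are shown for Ppara and Rxra, whose levels went together across libraries in both tissues, and for Ppargc1a, whose diet difference pointed in opposite directions in liver and lung. Each window runs from 250 bases before to 50 bases after a transcript start in RefSeq (GRCm38.p6), 5′ to 3′ on the strand of the gene. Capitals mark TGACG, the core of a cAMP response element, read on either strand (CGTCA is its reverse).
Ppara, chr15:85735526-85735825, plus strand: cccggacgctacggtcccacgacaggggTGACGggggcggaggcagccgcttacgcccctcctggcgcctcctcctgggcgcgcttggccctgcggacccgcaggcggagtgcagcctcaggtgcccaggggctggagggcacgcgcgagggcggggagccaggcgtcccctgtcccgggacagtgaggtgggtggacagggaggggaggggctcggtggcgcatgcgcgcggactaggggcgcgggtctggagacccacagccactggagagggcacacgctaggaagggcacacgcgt
Rxra, first of its windows, chr2:27676951-27677250, plus strand: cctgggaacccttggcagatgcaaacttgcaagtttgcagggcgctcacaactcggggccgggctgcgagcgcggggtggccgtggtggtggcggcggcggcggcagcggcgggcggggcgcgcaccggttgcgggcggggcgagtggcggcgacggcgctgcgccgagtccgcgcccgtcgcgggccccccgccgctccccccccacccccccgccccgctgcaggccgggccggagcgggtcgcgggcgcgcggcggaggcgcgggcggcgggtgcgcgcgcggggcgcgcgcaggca
Ppargc1a, chr5:51567676-51567975, minus strand: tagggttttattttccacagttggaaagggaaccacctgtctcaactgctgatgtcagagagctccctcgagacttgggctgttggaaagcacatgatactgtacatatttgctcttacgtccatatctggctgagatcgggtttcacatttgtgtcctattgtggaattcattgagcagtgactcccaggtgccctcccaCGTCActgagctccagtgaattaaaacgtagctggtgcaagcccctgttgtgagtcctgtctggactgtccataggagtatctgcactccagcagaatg
The Ppara window had a GC content of 74.7% and 30 CpG sites and the Rxra window 83.0% and 55, against a median of 52.7% and 7 over all 32851 windows. In contrast, the Ppargc1a window had 48.7% and 5. TGACG began at position -222 from the start in Ppara, at -4 in Ppard and, as CGTCA, at -119 in Rxrb and -49 in Ppargc1a, and 20.8% of all windows held it. Windows were found for 6 of the 7 genes, 10 windows in all. None held the PPAR element AGGTCANAGGTCA (0.0396% of all windows), the E-box CACGTG (7.15%), the full cAMP response element TGACGTCA (1.79%, which contains TGACG) or the D-box TTATGTAA (0.938%), each searched on both strands. The core AGGTCA of nuclear receptor elements, present in 16.3% of all windows, stood at position -28 in the first and -9 in the second window of Pparg, and at -87 and -48 in the second window of Rxra. These are matches of letters in these windows only.

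The total count per library ranged from 14410117 to 17625179 in the liver and from 17934930 to 19396057 in the lung. The summed level of 8 hepatocyte markers, such as Alb, was at least 91212 CPM (counts scaled to a fixed library total) in every liver and at most 153 CPM in every lung, and that of 4 club cell markers, such as Scgb1a1, was at least 36403 CPM in every lung and at most 799 CPM in every liver, so the tissue labels match the markers. Genes with a count numbered 15961 in liver CS replicate 2 and 16207 in liver PS replicate 1, against 18250 to 19598 in the other livers. Leaving out CS replicate 2 raised the liver genes past an adjusted p of 0.05 from 1 to 65. Heart and skeletal muscle markers varied widely between lung libraries and their values stand beside the lung results.

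In the liver no gene of the 7 passed the test between the diets after adjustment over all genes tested, while Rxrb was lower and Ppargc1a higher in every PS mouse than in every CS mouse. All 7 passed edgeR's filter on low counts in the liver and 0 were called at an adjusted p under 0.05, against 0.00758% of the 13195 genes tested. At an unadjusted p at most 0.05, 2 of the 7 passed, Rxrb and Ppargc1a, against 7.55% of all genes tested. With the replicate number as a block (the replicate block) neither did (unadjusted p = 0.103 and 0.0524, edgeR adjusted p = 0.9998 for both). Replicate numbers do not pair CS and PS mice, so that fit is an alternative setting and not a limit set by the design. Rxrb and Ppargc1a also had groups that did not overlap, against 3.63% of all genes tested. Levels in the diet comparisons are CPM after TMM scaling within the tissue, and fold changes are PS against CS from edgeR's quasi-likelihood fit.

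Markers of other liver cells lay lower on the PS diet, although none of the Kupffer cell and endothelial markers passed the adjusted threshold. All 5 Kupffer cell markers were lower on the PS diet (median -0.78 on the log2 scale), and their summed level ran from 159 to 226 CPM in the CS livers and from 51.0 to 179 CPM in the PS livers. The smallest p among them was that of the lectin gene Clec4f (-0.74, unadjusted p = 0.00548, edgeR adjusted p = 0.355). All 6 endothelial markers were lower as well, with a median of -0.66 and sums of 49.8 to 67.3 CPM and 22.02 to 58.8 CPM, and the smallest p belonged to the tight junction gene Cldn5 (-1.42, unadjusted p = 0.00160, edgeR adjusted p = 0.232). Hepatocyte markers summed to 91212 to 118897 CPM in the CS livers and 107902 to 135360 CPM in the PS livers. These 3 sums overlapped between the diets, no marker was at 0 throughout a group, and the part of these cells in the liver differences below was not tested.

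Ppara, the receptor of the fasting liver, was measured at 55.3, 18.1, 104 and 28.8 CPM in the CS livers. In the PS livers it stood at 24.2, 34.4, 21.7, 55.9 and 32.8 CPM. The CS group spanned the whole range, with replicate 3 the highest and replicate 2 the lowest of all livers, and the groups overlapped. The mean was 51.6 ± 38.5 CPM (SD, n = 4) on the CS diet and 33.8 ± 13.5 CPM (SD, n = 5) on the PS diet. This gave a log2 fold change of -0.61 with a standard error of 0.45 (edgeR adjusted p = 0.826), with a 95% interval from -1.49 to 0.27 that holds both no difference and a fall of more than the observed size. The value hung on single livers, at -0.01 without CS replicate 3 and -0.89 without CS replicate 2 (edgeR adjusted p = 0.999 and 0.316).

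The other receptors did not pass either. Ppard ranged from 3.33 to 10.2 CPM on the CS diet and from 5.45 to 6.88 CPM on the PS diet, and its log2 fold change was -0.04 (edgeR adjusted p = 0.993). Its CS range was set by replicate 2 at the top and replicate 4 at the bottom. Pparg had 7.72, 6.13, 5.92 and 3.07 CPM in the CS livers and 6.26, 10.1, 7.70, 7.19 and 7.03 CPM in the PS livers. Those groups overlapped, and the log2 fold change of Pparg was 0.42 ± 0.27 (SE, edgeR adjusted p = 0.778), or 0.22 without CS replicate 4.

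Among the partners, Rxra, the main retinoid X receptor of hepatocytes, ranged from 261 to 457 CPM on the CS diet and from 236 to 366 CPM on the PS diet (log2 fold change -0.11, edgeR adjusted p = 0.965). Rxrb, a retinoid X receptor found in most tissues, was far less variable. It was measured at 36.3, 39.0, 35.3 and 37.8 CPM in the CS livers. In the PS livers Rxrb stood at 27.4, 28.3, 27.8, 28.7 and 22.7 CPM. Every PS liver was below every CS liver, with PS replicate 5 the lowest. The means were 37.1 ± 1.61 CPM (SD, n = 4) and 27.0 ± 2.46 CPM (SD, n = 5). On the log2 scale the difference was -0.46 with a standard error of 0.14 (unadjusted p = 0.00747, edgeR adjusted p = 0.406). The exact two-sided permutation test of the log2 CPM gave p = 0.00794, the smallest that 4 against 5 libraries allow and the value that groups without overlap fix, or 0.0556 after Benjamini-Hochberg adjustment over the 14 permutation tests of the 7 genes in the 2 tissues.

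Ppargc1a, the fasting- and cold-induced coactivator, was measured at 3.86, 6.54, 8.65 and 9.67 CPM in the CS livers. In the PS livers it stood at 15.5, 10.3, 10.8, 12.5 and 13.1 CPM. The lowest PS liver was just above the highest CS liver, so the groups did not overlap. The means were 7.18 ± 2.57 CPM (SD, n = 4) and 12.4 ± 2.04 CPM (SD, n = 5), a 1.73-fold difference, or 0.79 ± 0.27 on the log2 scale (SE, unadjusted p = 0.0120, edgeR adjusted p = 0.463). The exact permutation p was again 0.00794, or 0.0556 adjusted. Ppargc1b, its close relative with a role in mitochondrial and lipid genes, was low and uneven, at 0.938, 1.68, 6.38 and 1.41 CPM on the CS diet. On the PS diet Ppargc1b stood at 2.47, 2.05, 1.98, 2.75 and 5.57 CPM. A single liver of each diet, CS replicate 3 and PS replicate 5, was well above the rest, and the log2 fold change was 0.18 with a standard error of 0.55 (edgeR adjusted p = 0.981).

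**Figure D1:**
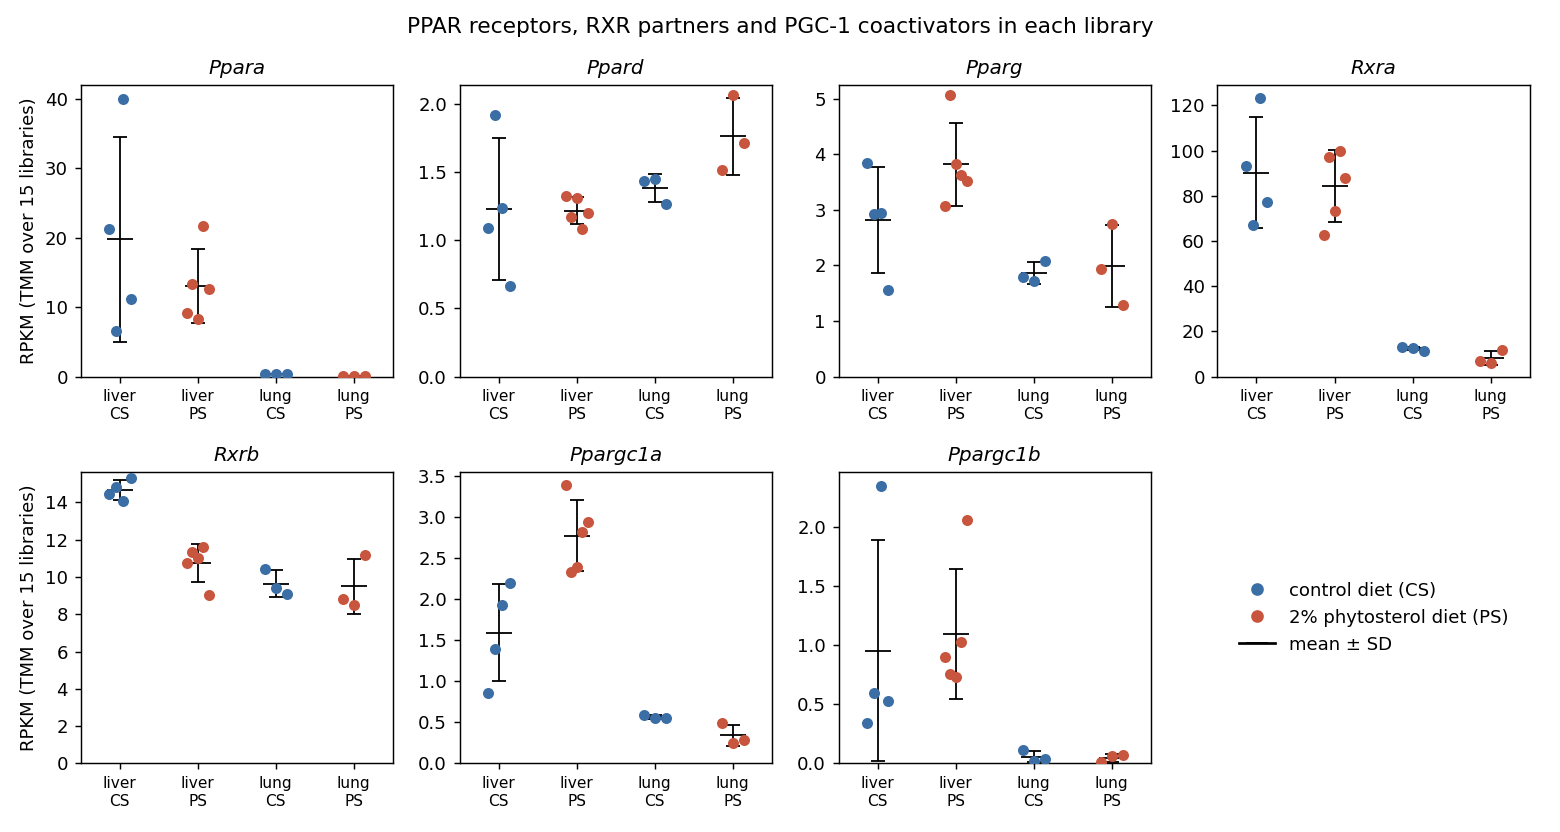
Level of each gene in every library, in RPKM (CPM divided by the gene length in kilobases) after TMM scaling over all 15 libraries, with blue points for the CS diet, red points for the PS diet and bars for the mean ± SD. Ppara, Rxra, Ppargc1a and Ppargc1b stood higher in every liver than in every lung on this scale, and in the liver Rxrb and Ppargc1a separated the diets without overlap.

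In the lung Ppara fell in every mouse of the PS diet below every CS mouse, and no other gene of the 7 passed the adjusted threshold. Of the 7 genes, 6 passed the filter on low counts in the lung and 1 was called at an adjusted p under 0.05, against 9.22% of the 16717 genes tested, so a call of this kind was common in the lung. At an unadjusted p at most 0.05, 2 of the 6 passed, Ppara and Ppargc1a, against 30.1% of all genes tested. The groups did not overlap for 3 of the 6, Ppara, Ppard and Ppargc1a, against 36.0% of all genes tested. With 3 against 3 libraries an exact permutation test cannot go below p = 0.1, so none is given for a single gene in the lung.

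Ppara was counted 48, 44 and 52 times in the CS lungs and 7, 9 and 17 times in the PS lungs. These counts correspond to 2.43, 2.26 and 2.82 CPM against 0.414, 0.502 and 0.938 CPM. The 3 CS lungs lay close together and every PS lung was well below them. The log2 fold change was -2.00 with a standard error of 0.41 (edgeR adjusted p = 0.0312), and Ppara passed the filter through its CS libraries. Over the alternative settings in which Ppara was tested, the log2 fold change ranged from -2.06 to -0.51, so its size depends on the processing. The direction was the same without any of the 6 lungs, but the adjusted p rose to between 0.106 and 0.108 without CS replicate 1, 2 or 3 or PS replicate 2 (edgeR), where the log2 fold change lay between -2.10 and -1.87. In bulk tissue, fewer cells of a type that express Ppara and less Ppara RNA per cell cannot be told apart.

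Skeletal muscle markers summed to 4.40, 10.1 and 434 CPM in the CS lungs and to 9.82, 5.36 and 5.85 CPM in the PS lungs, with Myh4 at 0 in all PS lungs. Heart muscle markers, all 8 of them present in both groups, summed to 212, 323 and 215 CPM in the CS lungs and to 579, 46.6 and 101 CPM in the PS lungs. The brown fat markers, all 6 present, summed to between 15.3 and 42.1 CPM on the CS diet and between 8.65 and 27.3 CPM on the PS diet, and the 7 white fat markers to between 130 and 316 CPM and between 156 and 339 CPM. Hepatocyte markers summed to 12.2 to 153 CPM in the CS lungs and 17.9 to 24.7 CPM in the PS lungs. The sums named so far overlapped between the diets. However, the 4 skeletal muscle markers tested were all lower on the PS diet, with log2 fold changes from -7.73 to -3.00 that did not pass (edgeR adjusted p from 0.199 to 0.315), and CS replicate 3 held most of their counts. All 5 hepatocyte markers tested in the lung were lower as well, from -2.54 to -1.23, as were 6 of the 7 white fat markers and 3 of the 4 brown fat markers tested, with Dio2 at -1.44 and Cidea at -1.40 (unadjusted p = 0.0205, edgeR adjusted p = 0.0998), and none of these passed. Of the 8 heart muscle markers 4 were lower and 4 higher, with Actc1 at -0.91 (unadjusted p = 0.0183, edgeR adjusted p = 0.0939) and Ryr2 at -0.77 (unadjusted p = 0.0462, edgeR adjusted p = 0.158).

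The sums of 2 other lists did separate the diets. Alveolar type II markers, those of the surfactant-making cells, summed to 21384, 20278 and 20909 CPM in the CS lungs and to 34847, 34462 and 22207 CPM in the PS lungs. B cell and plasma cell markers summed to 1207, 698 and 1268 CPM in the CS lungs and to 1549, 1803 and 1386 CPM in the PS lungs. Both sums were higher in every PS lung, while 3 of 7 and 3 of 6 of their single genes were higher. The part of any of these cells and tissues in the lung differences was not tested.

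Ppard in the lung stood at 19.0, 19.1 and 16.8 CPM on the CS diet and at 19.9, 27.9 and 23.8 CPM on the PS diet. Every PS lung was above every CS lung by a small margin, and the log2 fold change of 0.38 ± 0.17 (SE) did not pass the adjustment (unadjusted p = 0.0544, edgeR adjusted p = 0.174). Pparg, in contrast, overlapped, at 9.30, 8.94 and 10.9 CPM in the CS lungs and 10.1, 14.6 and 7.06 CPM in the PS lungs (log2 fold change 0.12, edgeR adjusted p = 0.800). The alveolar macrophage markers, among whose cells Pparg is best known in the lung, summed to between 647 and 663 CPM on the CS diet and between 644 and 871 CPM on the PS diet. Of the 10 single markers Plet1 fell (-0.70, edgeR adjusted p = 0.0370), while Itgax, Mrc1 and Siglecf had log2 fold changes of 0.56, 0.68 and 0.68 that did not pass (edgeR adjusted p = 0.110, 0.133 and 0.142). Among the 6 endothelial markers Kdr fell (-0.95, edgeR adjusted p = 0.0412), while the other 5 lay between -0.09 and 0.33 and did not pass. The sum of the 6 was 2738 to 3398 CPM in the CS lungs and 2597 to 3411 CPM in the PS lungs. The part of these cells in the lung differences was not tested.

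Rxra was measured at 126, 124 and 111 CPM in the CS lungs and at 68.6, 58.4 and 119 CPM in the PS lungs. PS replicates 1 and 2 were far below the CS lungs, while PS replicate 3 lay among them. The log2 fold change of Rxra was -0.55 ± 0.25 (SE, edgeR adjusted p = 0.170). Without PS replicate 3 it was -0.92 and passed (edgeR adjusted p = 0.0139), and without PS replicate 2 it was -0.36. Rxrb, in contrast, overlapped, with 59.3 to 68.0 CPM on the CS diet and 56.4 to 76.8 CPM on the PS diet (log2 fold change 0.02, edgeR adjusted p = 0.957).

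Ppargc1a was measured at 6.82, 6.37 and 6.46 CPM in the CS lungs and at 5.68, 3.01 and 3.48 CPM in the PS lungs. All PS lungs lay below the CS lungs, with PS replicate 1 the closest to them. The log2 fold change was -0.69 with a standard error of 0.29 (unadjusted p = 0.0413, edgeR adjusted p = 0.148). Without PS replicate 1, the lung with the highest sum of heart muscle markers, it was -1.02 and passed (edgeR adjusted p = 0.0304). When each lung was left out in turn, it ranged from -1.02 to -0.52, with edgeR adjusted p-values from 0.0304 to 0.351. Over these fits the count of all genes called ranged from 0 to 2949. The part of heart muscle in this difference was not tested. Ppargc1b was near the detection limit in the lung, with 16, 3 and 5 counts on the CS diet and 1, 8 and 10 on the PS diet. It was not tested there, and without the filter its log2 fold change was -0.22 (edgeR adjusted p = 0.897).

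**Figure D2:**
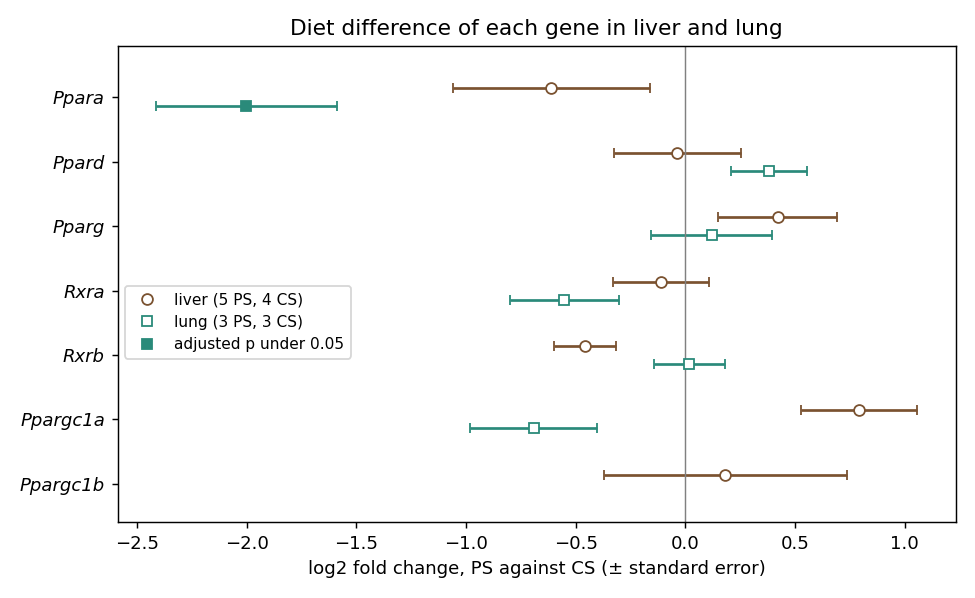
Log2 fold change, PS against CS, of each gene in liver (circles, 5 PS and 4 CS libraries) and lung (squares, 3 PS and 3 CS libraries) with its standard error; filled symbols have an edgeR adjusted p under 0.05. Ppargc1b was not tested in the lung. Ppara in the lung is the only filled symbol, and Ppargc1a lies at 0.79 in the liver and at -0.69 in the lung.

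To ask whether the diet difference itself differed between the tissues, all 15 libraries were fitted together with a diet by tissue term. None of the 7 genes passed at an adjusted p under 0.05, against 0.0226% of the 17696 genes tested. With DESeq2 the count was 1 of the 7, against 1.53% of the 15263 genes with a DESeq2 adjusted p. In edgeR it was also 1 at an unadjusted p at most 0.05, against 10.9% of all genes tested, and in each case the gene was Ppargc1a. The lung difference of Ppargc1a minus its liver difference was -1.52 on the log2 scale with a standard error of 0.42 (unadjusted p = 0.00225, edgeR adjusted p = 0.264, DESeq2 adjusted p = 0.0436). These fits do not take into account that some mice gave both tissues. With the mouse as a replicate block no gene passed, and among the alternative settings the edgeR adjusted p of Ppargc1a reached 0.872. For Ppara the term was -1.43 ± 0.74 (SE, edgeR adjusted p = 0.493), so its fall in the lung was not shown to differ from its liver value. Rxrb gave 0.43 ± 0.21 (SE, edgeR adjusted p = 0.475). The terms of Ppard, Pparg, Rxra and Ppargc1b lay between -0.49 and 0.36 on the log2 scale, with edgeR adjusted p-values from 0.629 to 0.917.

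**Figure D3:**
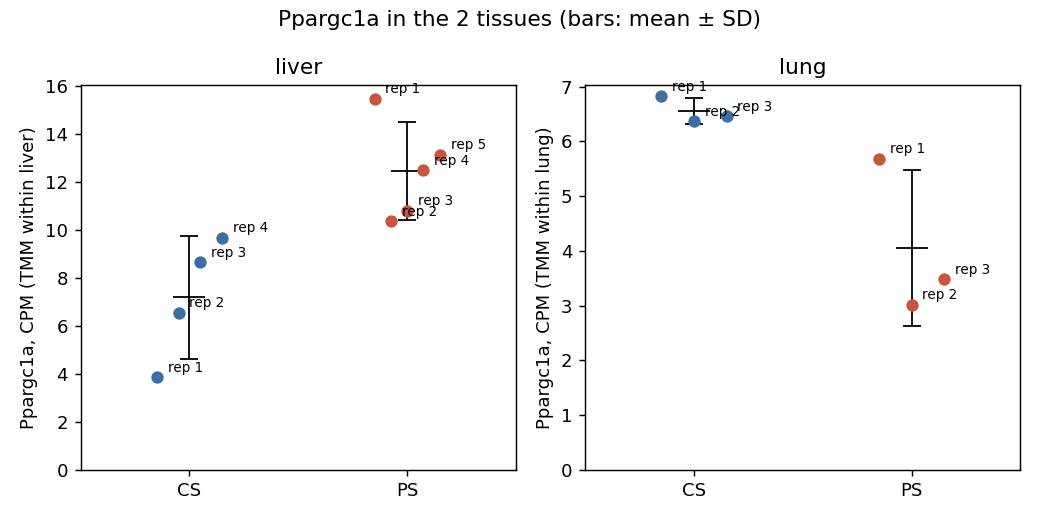
Level of Ppargc1a in each liver (left) and lung (right), in CPM after TMM scaling within the tissue, by diet, with the replicate number beside each point and bars for the mean ± SD. The PS livers lie at 10.3 to 15.5 CPM above the CS livers at 3.86 to 9.67 CPM, whereas the PS lungs lie at 3.01 to 5.68 CPM below the CS lungs at 6.37 to 6.82 CPM.

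Comparing the tissues, Ppara, Rxra, Ppargc1a and Ppargc1b were far lower in the lung than in the liver, while Ppard, Pparg and Rxrb were of the same order in both. Levels are given here as RPKM, which is CPM divided by the gene length in kilobases, after TMM scaling over the 15 libraries. The values depend on that scaling. With TMM the median gene tested was 0.17 higher in the lung on the log2 scale, and with plain library totals, a setting chosen after seeing the data, it was 1.55 higher. Fold changes between the tissues are therefore also given relative to the median of all genes, and the 15 libraries came from 9 mice. In edgeR 6 of the 7 genes passed at an adjusted p under 0.05, against 76.7% of the 17696 genes tested, and all 7 passed with plain totals. The tissues did not overlap for 4 of the 7, against 51.5% of all genes tested.

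Ppara averaged 19.8 ± 14.8 RPKM (SD, n = 4) in the CS livers and 13.0 ± 5.32 RPKM (SD, n = 5) in the PS livers. In the lung it averaged 0.370 ± 0.0411 RPKM (SD, n = 3) and 0.0888 ± 0.0377 RPKM (SD, n = 3). The lowest liver, at 6.62 RPKM, was above the highest lung, at 0.416 RPKM. Lung against liver, the log2 fold change came to -6.45 (edgeR adjusted p = 7.43e-10), or -6.61 relative to the median gene. With plain totals it was -5.09 (edgeR adjusted p = 1.36e-08).

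Rxra averaged 90.2 ± 24.4 and 84.2 ± 15.9 RPKM (SD) in the CS and PS livers and 12.5 ± 0.880 and 8.28 ± 3.04 RPKM (SD) in the CS and PS lungs. Every liver was above every lung, with a log2 fold change of -3.10 (edgeR adjusted p = 6.05e-10), or -3.27 relative to the median gene, and -1.72 with plain totals (edgeR adjusted p = 9.85e-07). Ppargc1a ran from 2.78 ± 0.435 RPKM (SD, n = 5) in the PS livers over the CS livers and the CS lungs down to 0.343 ± 0.128 RPKM (SD, n = 3) in the PS lungs, and none of its 4 groups overlapped the next. On the log2 scale Ppargc1a differed by -2.26 (edgeR adjusted p = 9.01e-08), or -2.42 relative to the median gene, and by only -0.87 with plain totals (edgeR adjusted p = 0.000808). Ppargc1b passed the filter through its liver libraries only and differed by -4.21 on the log2 scale (edgeR adjusted p = 4.21e-06), or -4.38 relative to the median gene, and by -2.84 with plain totals (edgeR adjusted p = 0.000192).

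Pparg and Rxrb were lower in the lung by much less, and their direction depended on the scaling. The log2 fold change of Pparg was -0.77 (edgeR adjusted p = 0.00396) with TMM and 0.60 with plain totals. For Rxrb it was -0.39 (edgeR adjusted p = 0.00324) with TMM and 1.00 with plain totals, and with the mouse as a replicate block the TMM value was -0.27 and no longer passed (edgeR adjusted p = 0.147). Relative to the median gene Pparg stood at -0.93 and Rxrb at -0.56 with TMM, and at -0.95 and -0.55 with plain totals. With at least 10 counts in every library these values were nearer to the median gene, at -0.50 and -0.12. Ppard had a log2 fold change of 0.35 (edgeR adjusted p = 0.0935), or 0.19 relative to the median gene, and of 1.74 with plain totals (edgeR adjusted p = 2.54e-07). Relative to the median gene Ppard was 0.62 with at least 10 counts in every library. That value turned negative with no filter (-0.10), the length trend removed (-0.05) and the mouse block (-0.02). On the RPKM scale Ppard averaged 1.23 and 1.22 in the CS and PS livers and 1.38 and 1.76 in the CS and PS lungs, and of neighbouring groups in this order only the lung groups did not overlap.

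A make-up within one library does not depend on the scaling between libraries. Of the summed RPKM of the 3 PPAR receptors, Ppara held 78.2 ± 14.2% (SD, n = 4) in the CS livers and 70.5 ± 7.60% (SD, n = 5) in the PS livers. In the lung Ppara held 10.02, 9.57 and 11.03% on the CS diet and 1.75, 1.49 and 4.21% on the PS diet, without overlap. Pparg was the largest receptor of the CS lungs, with 49.1 to 55.4% of the sum, followed by Ppard with 33.6 to 41.3%. In the PS lungs Pparg held 55.2, 56.2 and 41.2% and Ppard 43.0, 42.3 and 54.6%, so that in PS replicate 3 Ppard was above Pparg.

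Of the summed RPKM of Rxra and Rxrb, Rxra held 85.4 ± 3.48% (SD, n = 4) in the CS livers and 88.4 ± 2.20% (SD, n = 5) in the PS livers. Its share was 55.6, 57.8 and 55.8% in the CS lungs and 44.8, 41.2 and 51.1% in the PS lungs. Rxra was thus the larger of the pair in every liver and every CS lung and the smaller in 2 of the 3 PS lungs. Ppargc1a held 45.1 to 80.6% of the summed RPKM of the 2 coactivators in the livers and 79.2 to 98.3% in the lungs.

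**Figure D4:**
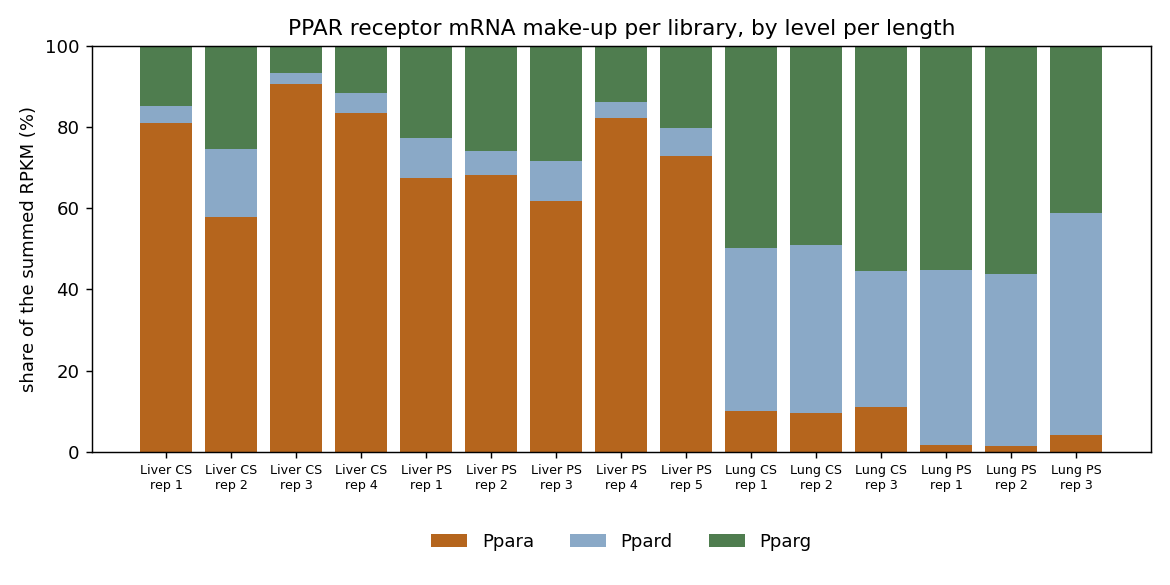
Share of Ppara, Ppard and Pparg in their summed RPKM, in percent, for each of the 15 libraries. Ppara holds 57.8 to 90.5% in the livers, 9.57 to 11.03% in the CS lungs and 1.49 to 4.21% in the PS lungs, where Pparg and Ppard make up the rest.

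The 2 remaining genes of these small families were Rxrg, the third retinoid X receptor, and Pprc1, the third PGC-1 family member. Rxrg averaged 4.49 ± 1.29 RPKM (SD, n = 4) in the CS livers and 3.93 ± 1.29 RPKM (SD, n = 5) in the PS livers, and it was counted 1 to 19 times in each lung. Pprc1 averaged between 1.36 and 1.69 RPKM in the 4 groups, which overlapped. Pprc1 shares 177 exon bases with Ldb1 on the other strand, which had a mean of 514 counts in the liver and 3121 in the lung, and since the strand setting is not given, reads of the pair in that stretch cannot be told apart. Neither passed between the diets in the liver (edgeR adjusted p = 0.948 and 0.920), and Pprc1 did not pass in the lung (log2 fold change 0.34, edgeR adjusted p = 0.339).

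The receptors' known target genes were read from a list of 32 PPARα targets, mostly enzymes of fatty acid oxidation. In the liver 29 of them were tested, and 0 passed at an adjusted p under 0.05. At an unadjusted p at most 0.05, 15 were lower on the PS diet and 0 higher, against 3.58% lower and 3.96% higher among all genes tested. The 15 became 7 without CS replicate 1, 9 without PS replicate 1 or PS replicate 5, and 10 without CS replicate 3, CS replicate 4 or PS replicate 3. They became 5 with the replicate block, whose numbers do not pair mice. The median log2 fold change of the 29 was -0.53, beside -0.03 over all genes tested, and lay between -0.65 and -0.42 without any 1 liver. The smallest p-values belonged to Pdk4, which restrains glucose oxidation (log2 fold change -2.20, edgeR adjusted p = 0.230), the fatty acid hydroxylase Cyp4a10 (-0.67, edgeR adjusted p = 0.230), the fasting hormone gene Fgf21 (-1.58, edgeR adjusted p = 0.321) and the mitochondrial carnitine enzyme gene Cpt2 (-0.53, edgeR adjusted p = 0.355).

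Pdk4 averaged 39.4 ± 24.6 CPM (SD, n = 4) in the CS livers and 8.52 ± 4.89 CPM (SD, n = 5) in the PS livers, and it ranged from 8.83 to 69.2 CPM on the CS diet. Fgf21 averaged 43.7 ± 16.7 CPM (SD, n = 4) and 14.7 ± 8.65 CPM (SD, n = 5). Ppara itself differed by -0.61 on the log2 scale in these livers and did not pass.

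In the lung 26 of the 32 PPARα targets were tested. At an adjusted p under 0.05, 2 were lower and 0 higher, against 4.43% lower and 4.80% higher among all genes tested. Acadvl, the first enzyme of very long-chain fatty acid oxidation in mitochondria, fell. It averaged 46.7 ± 4.47 CPM in the CS lungs and 15.01 ± 7.61 CPM in the PS lungs (SD, n = 3 each), and its log2 fold change was -1.64 (edgeR adjusted p = 0.0255). Acsl1, which activates long-chain fatty acids, fell as well. Its averages were 83.5 ± 9.47 and 42.2 ± 12.3 CPM (SD, n = 3 each) and its log2 fold change -0.98 (edgeR adjusted p = 0.0364). The thioesterase gene Acot1, with a log2 fold change of -1.22, did not pass (edgeR adjusted p = 0.0594). At an unadjusted p at most 0.05, 10 were lower and 1 higher, against 14.5% lower and 15.6% higher among all genes tested. The median of the 26 was -0.33, beside 0.01 over all genes tested, and -0.20 and -0.21 without PS replicate 3 and PS replicate 2. Heart and skeletal muscle express these oxidation genes strongly, and the part of muscle, whose markers are given above, in these differences was not tested.

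The calls of single lung genes rested on few libraries. Over the PPAR target, receptor, PGC-1 effector and clock lists, 13 genes passed the adjusted threshold in the lung, Acadvl and Acsl1 among them. Each kept its direction without any 1 lung, but none of the 13 passed without CS replicate 1, 2 or 3 or PS replicate 2, where the edgeR adjusted p-values lay between 0.0813 and 0.165.

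Of 18 PPARγ targets, 13 were tested in the liver, where 0 passed at an adjusted p under 0.05 and 4 were lower at an unadjusted p at most 0.05 (1 to 5 without any 1 liver), against 3.58% of all genes tested, with a median log2 fold change of -0.33, or -0.15 with no filter on low counts. The 4 were the lipid droplet gene Cidec (-1.92, edgeR adjusted p = 0.290), Agpat2, Lpl and Acsl1. All 18 were tested in the lung, where the adjusted threshold was passed upwards by 1 and downwards by 2, against 4.80% higher and 4.43% lower among all genes tested. Their median was -0.77, but it was -0.09 over those with at least 10 counts in every library, and it lay between -1.06 (without PS replicate 1) and -0.47 (without PS replicate 3) when a lung was left out. Lipe, which encodes hormone-sensitive lipase, rose. It averaged 108 ± 10.5 CPM on the CS diet and 171 ± 15.1 CPM on the PS diet (SD, n = 3 each), 0.66 higher on the log2 scale (edgeR adjusted p = 0.0338). Acsl1, which is on both lists, and Gpd1, a glycerol phosphate enzyme gene (-0.90, edgeR adjusted p = 0.0485), fell. Lipe is also on the white fat list and held much of its summed level in the lung, while the other 6 white fat markers had log2 fold changes from -2.65 to -0.81, none of which passed.

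Retinoid X receptors also pair with other nuclear receptors, and 10 of a list of 12 were tested in each tissue. In the liver 0 passed, and the smallest p belonged to Nr4a1, an immediate early receptor gene (log2 fold change -2.43, edgeR adjusted p = 0.114). In the lung 1 was higher and 1 lower, against 4.80% and 4.43% of all genes tested, both of them retinoic acid receptors. Rara rose, with averages of 50.6 ± 5.73 and 77.9 ± 4.06 CPM (SD, n = 3 each) and a log2 fold change of 0.62 (edgeR adjusted p = 0.0364). Rarb fell, with averages of 3.47 ± 0.682 and 0.486 ± 0.509 CPM (SD, n = 3 each) and a log2 fold change of -2.81 (edgeR adjusted p = 0.0406), with 57 to 78 counts in the CS lungs and 1 to 19 in the PS lungs. Rarb passed the filter through its CS libraries.

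A list of 16 coactivators and corepressors other than PGC-1 held no gene that passed. All were tested in each tissue, 0 passed in either in edgeR, and they had a median log2 fold change of 0.00 in the liver and 0.11 in the lung. At an unadjusted p at most 0.05 edgeR gave 2 of them in each tissue, against 7.55% of all genes tested in the liver and 30.1% in the lung. Lpin1, a phosphatidate phosphatase that also acts as a PGC-1α and PPARα coactivator, stood out in the liver with 39.9 ± 22.1 CPM (SD, n = 4) on the CS diet and 257 ± 108 CPM (SD, n = 5) on the PS diet, 2.69 higher on the log2 scale (edgeR adjusted p = 0.105). The corepressor gene Nrip1 had -0.50 (edgeR adjusted p = 0.463). In the lung the smallest p belonged to Crebbp, a histone acetyltransferase gene (0.49, edgeR adjusted p = 0.0613).

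Downstream of PGC-1, 11 of 12 effector genes of mitochondrial biogenesis were tested in each tissue. None passed in the liver in edgeR, also at an unadjusted p at most 0.05, and the median was -0.01. In the lung 1 of the 11 passed, against 9.22% of all genes tested. Atp5b, the catalytic subunit of ATP synthase, fell, with averages of 517 ± 64.8 and 271 ± 76.0 CPM (SD, n = 3 each) and a log2 fold change of -0.93 (edgeR adjusted p = 0.0426), and the median of the list was -0.02. Of a list of 9 regulators of Ppargc1a or of its protein, not all of them inducers, 0 passed in either tissue in edgeR. At an unadjusted p at most 0.05 there were 0 in the liver and 3 in the lung, against 7.55% and 30.1% of all genes tested. The smallest p-values in the lung were those of Prkaa2, a subunit of AMP-activated kinase (log2 fold change -0.59, edgeR adjusted p = 0.0688), and Kat2a (0.68, edgeR adjusted p = 0.0938).

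**Figure D5:**
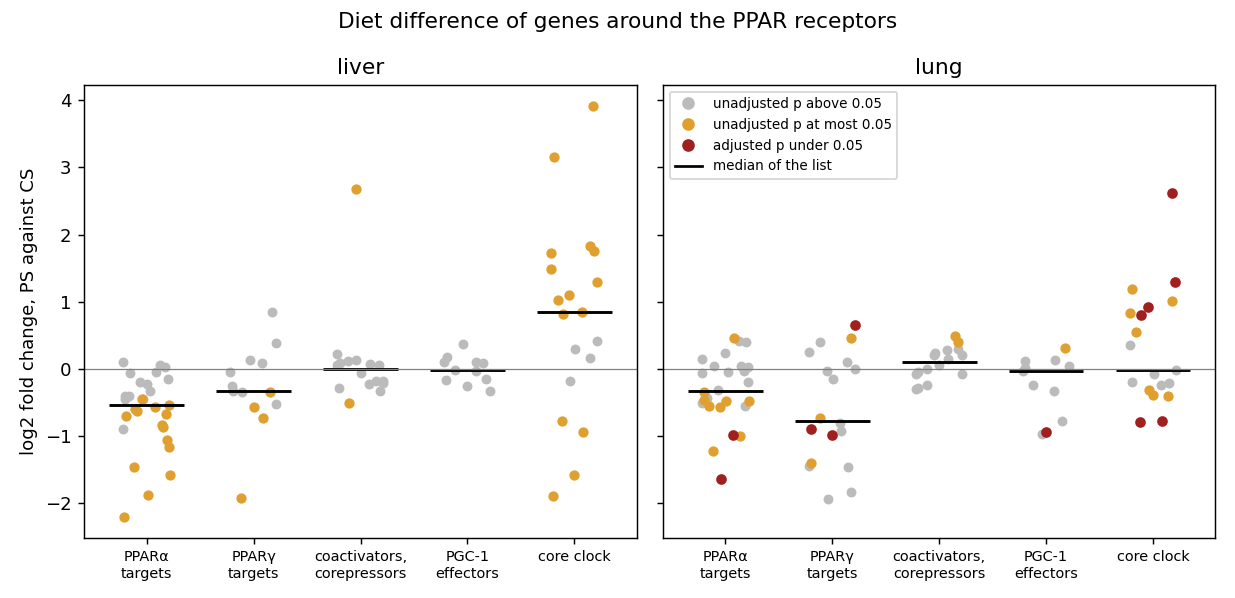
Log2 fold change, PS against CS, of the tested genes of 5 lists in liver (left) and lung (right), with a black line at the median of each list, orange points for an unadjusted p at most 0.05 and red points for an edgeR adjusted p under 0.05. The PPARα targets have a median of -0.53 in the liver and -0.33 in the lung, and the core clock genes have a median of 0.85 in the liver and -0.01 in the lung.

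PPAR receptors and PGC-1α are known to cycle with the hour of the day, so the values of the core clock genes are given beside theirs. In the liver 0 of 19 clock genes passed at an adjusted p under 0.05, while at an unadjusted p at most 0.05, 11 were higher and 4 lower on the PS diet, against 3.96% and 3.58% of all genes tested. The 11 became 7 without CS replicate 1, CS replicate 4 or PS replicate 1. The replicate block, whose numbers do not pair mice, left 8 higher and 2 lower. The median log2 fold change was 0.85, and the smallest p-values belonged to Bhlhe40 (1.84, edgeR adjusted p = 0.0974), Arntl (-1.57, edgeR adjusted p = 0.0974), Nr1d1 (1.29, edgeR adjusted p = 0.103) and Npas2 (-1.88, edgeR adjusted p = 0.175). The summed level of the 19 was 434, 556, 529 and 445 CPM in the CS livers and 974, 612, 891, 806 and 890 CPM in the PS livers, without overlap. In the lung the adjusted threshold was passed by 6, against 9.22% of all genes tested, with rises of Nr1d2, Nr1d1, Per1 and Ciart, falls of Cry1 and Nfil3, and a median of -0.01. The part of the clock in the differences of Ppargc1a, Rxrb and Ppara was not tested.

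Across libraries the levels of Ppara and Rxra went together. Over the 9 livers Pearson's r of their log2 CPM was 0.92 and Spearman's rho 0.93, and without the 2 livers farthest from the median of Ppara r was 0.82. Over the 6 lungs r was 0.85 and rho 0.60. In the liver Rxrb and Ppargc1a ran against each other, with r of -0.71 and rho of -0.85, and without the 2 livers farthest in Rxrb r was -0.77, whereas over the 6 lungs r was -0.13 and rho 0.37. These were the strongest of 21 pairs in the liver in each direction. In the lung the strongest pair was Ppard and Ppargc1a, with r of -0.95 and rho of -0.94, against -0.09 and 0.10 in the liver. All are given as descriptions, since the pairs share their libraries, their depth and the diet groups. The diet means were not removed. Rxrb and Ppargc1a separated the liver diets without overlap in opposite directions, which by itself gives a negative correlation.

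Over all 15 libraries, with the mean of each tissue removed, the genes most like Ppara among 11402 compared were Gm10031 (r = 0.98), Ndst1 (r = 0.97) and Tm9sf1 (r = 0.96). Rxra was closest to Dstyk (r = 0.95), Tpm3 (r = 0.95) and Kat7 (r = 0.95), and Rxrb to Gnl1 (r = 0.92), Trim25 (r = 0.90) and Habp4 (r = 0.88). For Ppargc1a they were Cabcoco1 (r = 0.92), Slc16a12 (r = 0.88) and Aacs (r = 0.87). Ppard was closest to Zmiz2 (r = 0.96), Upf1 (r = 0.94) and Tln1 (r = 0.94), Pparg to Gypc (r = 0.84), Cwc22 (r = 0.81) and Ank3 (r = 0.80), and Ppargc1b to Tet3 (r = 0.83), Ubr2 (r = 0.78) and Prkag2 (r = 0.77).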

How the data were processed

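RNA-seq libraries of liver (4 CS, 5 PS) and lung (3 CS, 3 PS) were grouped by their labels. Per the submitters' processing notes, reads were aligned to mm10 with HISAT2 2.0.5 and counted with featureCounts 1.5.0-p3, and DESeq2 1.20.0 was used. The gene annotation and strand setting are not given in the sources used here. The authors deposited raw counts per gene and FPKM values, the latter being the counts divided by gene length and by 1 factor per library.

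Counts were tested with edgeR 4.0.16 in R 4.3.3 (filterByExpr with a minimum count of 10, TMM, robust quasi-likelihood test, Benjamini-Hochberg adjustment over all genes tested), within each tissue for diet and over 15 libraries for tissue and diet by tissue. Standard errors are those of the log2 fold change, and 95% intervals are normal ones. Log2 CPM used a prior count of 2. DESeq2 1.42.0, limma 3.58.1 on log2(FPKM + 1) and log2(FPKM + 0.1), other scalings and filters, loess removal (span 0.3) of length or GC trends, replicate blocks and leaving out each library were alternatives. The scripts were tested on simulated data.

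All columns were mapped to samples. Liver and lung of 6 mice are true pairs by mouse name, and the correlation of their deviations from the group means ran from -0.07 to 0.12. No 2 libraries of a group agreed within sampling noise. The labels name no batch. P-values of the diet comparisons within a tissue rest on separate mice, whereas those of tissue and diet by tissue come from 15 libraries of 9 mice, 6 of which gave both tissues. Totals of 14410117 to 19396057 counts per library limit genes with few counts, for counting error alone. Genes named from lists are the 4 with the smallest p in a list and comparison, and lung genes past the adjusted threshold where a list has at most 6. Like genes are the 3 with the highest Pearson's r at a mean of at least 1 CPM in each tissue. The genes and lists were chosen with earlier results of these data known.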

Additional observations from a re-analysis of the deposited data

Results flagged for a closer look

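In 14 groups of 4 or 5 livers, the highest or lowest library lay far from the others in 3. The rule flags about 1 in 20 groups where values are normal and groups independent. These groups are CPM values from the same livers, so the 3 cannot be set against that rate. Rxrb stood at 22.7 CPM in liver PS replicate 5, with the nearest PS liver at 27.4 CPM. PS replicate 5 was the lowest PS liver, so leaving it out could not make the diet groups overlap. Ppargc1b stood at 6.38 CPM in liver CS replicate 3, with the nearest CS liver at 1.68 CPM, and at 5.57 CPM in liver PS replicate 5, with the nearest PS liver at 2.75 CPM.

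The diet difference of Ppargc1a pointed in opposite directions in the tissues, with every PS liver above every CS liver and every PS lung below every CS lung. The difference between the tissues was -1.52 on the log2 scale (edgeR adjusted p = 0.264 over all genes, DESeq2 adjusted p = 0.0436), in fits without a mouse block. With the mouse as a replicate block no gene passed, and among the alternative settings the edgeR adjusted p of Ppargc1a reached 0.872.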

How the results depend on the processing

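In the liver edgeR called 1 gene at an adjusted p under 0.05, against 163 with DESeq2's Wald test, 26 with no filter, 2 with at least 10 counts in every library, 0 with the length trend removed, 6 and 4 with limma-trend on FPKM at pseudocounts of 1 and 0.1, and 0 with the replicate block, and 0 to 65 without a library in turn. At an unadjusted p at most 0.05 it called 996 genes, against 1613 with no filter and 487 with the replicate block, and 699 to 1891 without a library. In the lung it called 1542 genes, 3090 with DESeq2's Wald test and 0 to 2949 without a library, and 1 of the 7 genes, 0 with at least 10 counts in every library (Ppara could not be tested there, with 7 and 9 counts in the PS lungs) and 0 to 2 without a library. Between the tissues it called 13579 genes and 7789 with at least 10 counts in every library. For diet by tissue it called 4 genes, 233 with DESeq2's Wald test, 10 with no filter, 0 with the mouse as a replicate block and 0 to 12 without a library, and 0 of the 7 genes against 1 with DESeq2's Wald test.

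Directions turned for small differences. Liver Ppard became 0.016 with the length and 0.024 with the GC trend removed, 0.0030 and 0.047 with limma-trend at pseudocounts 1 and 0.1 and 0.073 with the replicate block, and ranged from -0.25 to 0.29 without a library in turn (0.29 without CS replicate 2, 0.00011 without PS replicate 4). Without a library in turn, liver Ppargc1b ranged from -0.17 to 1.14, negative without CS replicate 1, CS replicate 4 or PS replicate 5, and liver Rxra from -0.22 to 0.071, positive without CS replicate 3. Lung Rxrb became -0.28 with the GC trend removed and ranged from -0.14 to 0.097 without a library, negative without CS replicate 2 or PS replicate 3, and lung Pparg ranged from -0.18 to 0.34, negative without PS replicate 2. For diet by tissue, Pparg became 0.026 with the mouse block, and Ppargc1b ranged from -1.42 to 0.48 without a library, positive without lung CS replicate 1 or PS replicate 1. Between the tissues, Pparg became 0.60 and Rxrb 1.00 with plain library totals. The cause was not tested in these cases. Ppard between the tissues passed with DESeq2's size factors (0.50), DESeq2's Wald test, at least 10 counts in every library, upper-quartile scaling, plain totals and without liver CS replicate 2, and Rxrb did not pass with no filter, at least 10 counts, upper-quartile scaling or the mouse block. Replicate numbers do not pair CS and PS mice, whose deviations correlated between -0.29 and 0.07, and the block changed no call of the 7 genes at an adjusted p under 0.05 within a tissue. Rxrb and Ppargc1a, which passed in the liver at an unadjusted p at most 0.05, no longer did with the block (unadjusted p = 0.103 and 0.0524, edgeR adjusted p = 0.9998 for both).

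Depth limits Ppara and Ppargc1b in the lung, with 7 to 52 and 1 to 16 counts per library. With 3 lungs a group, single libraries decide the lung calls.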
